A study of Homo sapiens with 6 samples.

Results

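Imprinted genes are transcribed mainly from 1 parental copy, and 38 of them were followed here across the 6 libraries of the study. They were taken as a list of gene symbols, and 36 of the 38 have a row in the authors' table of 53719 gene rows; MESTIT1 and HYMAI have no row under these names. By the copy that is known to be active, 23 of the 38 are paternally expressed, 8 are maternally expressed, and 7 are set apart because their active copy depends on the isoform or tissue. The first 2 classes also hold genes, UBE3A among them, whose imprint is seen in some tissues only. The cells were H9, an established human embryonic stem cell line, grown in RSeT, a commercial medium intended to hold them in a naive-type state. All of them received a gapmer, a modified antisense oligonucleotide whose DNA middle lets RNase H cut the RNA it pairs with. In the knockdown group the gapmer was directed at the alpha satellite repeat RNA of the centromeres (ALR), and in the control group it was a control gapmer. Total RNA was collected 48 h later, and each group holds 3 libraries, lettered a, b and c. The labels do not say whether these came from separate cultures, so p-values measure the spread between libraries, which may be technical. All the cells are of 1 line, and the counts do not separate the maternal from the paternal copy.

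At an imprinted locus, DNA methylation laid down in the egg or the sperm marks a CpG-rich control region, and the mark is kept through the genome-wide loss of methylation in the early embryo. The zinc finger protein ZFP57 binds methylated copies of the hexamer TGCCGC and, through TRIM28 and SETDB1, keeps the mark in place. Many paternally expressed genes, such as IGF2, PEG10 and DLK1, act in growth of the fetus and placenta, and several maternally expressed genes, such as H19, PHLDA2 and GRB10 in some tissues, restrain it. Naive culture of human embryonic stem cells is known for erosion of imprints, which a count per gene cannot show.

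The cells were checked against markers first. Of 9 pluripotency genes, 8 were above 1 CPM (read counts put on 1 library size with TMM factors) in every library, and SOX2 was at 0 in all 6. Their summed level was 4752 to 5396 CPM in the knockdown libraries and 4843 to 4954 CPM in the controls. Genes of the naive state summed to 78.4 to 86.8 CPM and 77.3 to 80.8 CPM, and 7 of the 10 were above 1 CPM in every library. KLF17, a defining naive factor, had 0.0275 to 0.353 CPM. ARGFX, DPPA5, ALPPL2, DNMT3L and SUSD2 were also low, with control means of 0.753 to 2.61 CPM. FGF4 and KLF4 had control means of 6.71 and 17.9 CPM. The summed level came mostly from KLF4, TFCP2L1 (23.9 to 32.2 CPM) and DPPA3 (18.1 to 21.9 CPM). Genes of the primed state summed to 354 to 395 CPM and 340 to 370 CPM. Trophoblast genes, at 2.73 to 4.90 and 3.25 to 3.34 CPM, and endoderm genes, at 2.34 to 3.70 and 1.84 to 2.61 CPM, had no member above 1 CPM in every library. Mesoderm and fibroblast genes summed to 35.3 to 39.4 and 30.9 to 38.4 CPM, and neural genes to 205 to 237 and 220 to 246 CPM, the latter mostly TUBB3. Total counts ran from 25087629 to 36576752. Knockdown library a stood apart, with a count in 29678 rows against 25898 to 26788 in the other 5, and values of genes that lean on it are also given without it.

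The promoters of 25 of the 38 genes were found in RefSeq (GRCh38.p14), as the 250 bases before the annotated start. They held a median of 16 CG dinucleotides, compared with 11 over all 27305 promoters in the same table. The TGCCGC hexamer, searched on both strands (GCGGCA on the reverse), was present in 7 of the 25 (28%) and in 12.6% of all promoters. It was in 5 of 14 paternally expressed genes (35.7%), 1 of 4 maternally expressed genes (25%) and 1 of the 7 isoform- or tissue-dependent genes (14.3%). These counts describe the letters of the windows only, and an annotated start need not be the imprinted one. The 25 windows also held more G and C bases, with a median of 63.6% against 58.0% over all promoters. The hexamer counts were not adjusted for this. DLK1, PEG10 and SGCE were not matched. The 5 windows below belong to genes whose levels, compared later, did not overlap between the groups; SNRPN, the other such gene with a window, held 6 CG dinucleotides. They read 5′ to 3′ on the gene's strand, with each CG dinucleotide, the site at which DNA methylation can occur, in capitals. Methylation of these windows was not measured. UBE3A is at chr15:25439025-25439274 on the minus strand, GRB10 at chr7:50793454-50793703 on the minus strand, L3MBTL1 at chr20:43507447-43507696 on the plus strand, MEST at chr7:130485925-130486174 on the plus strand and NDN at chr15:23687306-23687555 on the minus strand.
UBE3A: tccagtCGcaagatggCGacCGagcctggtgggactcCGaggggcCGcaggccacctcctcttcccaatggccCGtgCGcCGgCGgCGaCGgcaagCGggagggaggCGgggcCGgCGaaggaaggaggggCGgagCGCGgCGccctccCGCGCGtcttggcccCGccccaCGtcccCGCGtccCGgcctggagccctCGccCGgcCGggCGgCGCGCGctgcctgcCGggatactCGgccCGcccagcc
GRB10: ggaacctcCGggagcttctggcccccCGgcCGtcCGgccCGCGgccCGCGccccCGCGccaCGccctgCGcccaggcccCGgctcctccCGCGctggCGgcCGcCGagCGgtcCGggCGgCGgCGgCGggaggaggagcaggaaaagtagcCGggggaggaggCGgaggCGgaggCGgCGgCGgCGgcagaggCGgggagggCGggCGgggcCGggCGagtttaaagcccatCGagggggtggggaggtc
L3MBTL1: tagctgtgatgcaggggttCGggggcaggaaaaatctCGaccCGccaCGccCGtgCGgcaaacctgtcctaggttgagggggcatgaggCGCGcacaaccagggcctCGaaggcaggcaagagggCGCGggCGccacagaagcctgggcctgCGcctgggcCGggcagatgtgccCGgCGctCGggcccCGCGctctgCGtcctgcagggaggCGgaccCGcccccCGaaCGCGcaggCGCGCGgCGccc
MEST: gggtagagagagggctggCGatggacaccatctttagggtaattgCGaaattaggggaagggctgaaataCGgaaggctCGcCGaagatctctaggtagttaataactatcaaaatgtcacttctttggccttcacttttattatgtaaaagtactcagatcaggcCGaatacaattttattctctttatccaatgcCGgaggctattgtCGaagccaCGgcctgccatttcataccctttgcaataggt
NDN: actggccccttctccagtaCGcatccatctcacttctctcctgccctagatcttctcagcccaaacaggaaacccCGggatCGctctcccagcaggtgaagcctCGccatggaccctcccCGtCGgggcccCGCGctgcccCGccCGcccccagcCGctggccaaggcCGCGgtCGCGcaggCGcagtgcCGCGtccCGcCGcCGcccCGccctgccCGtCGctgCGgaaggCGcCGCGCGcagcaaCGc
UBE3A and GRB10 each held 37 CG dinucleotides, NDN 30 and L3MBTL1 29, whereas the MEST window held 9. The hexamer occurred 1 time each in GRB10, L3MBTL1 and NDN and was not found in UBE3A or MEST. The L3MBTL1 window lies inside the GENCODE gene model used for its level, which begins further upstream at an alternative start.

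Whether a row could hold reads at all had to be settled before any level was read. Of the 36 rows, 6 were at 0 in all 6 libraries, and all 6 genes lie inside another gene of the table. KCNQ1OT1, the long noncoding RNA that silences its neighbours in cis, lies inside KCNQ1. PEG3, a zinc finger gene, lies inside ZIM2. NNAT, encoding the membrane protein neuronatin, lies inside BLCAP. The small GTPase gene DIRAS3 lies inside GNG12-AS1, the nucleosome assembly gene NAP1L5 inside HERC3, and the homeobox gene DLX6 inside DLX6-AS1. The same held across the table, where 31465 rows were matched by name to GENCODE release 29. Of protein-coding rows that overlap no other row, 760 of 10554 (7.2%) were at 0 in every library. Of those inside another row on the same strand, 234 of 261 (89.7%) were at 0, and of those inside a row on the opposite strand only, 517 of 557 (92.8%). Among genes of the last kind whose exons overlap no exon of another row, 305 of 325 (93.8%) were at 0. SOX2, which lies inside SOX2-OT, was also at 0 in every library. A 0 in these 6 imprinted genes therefore carries no information on their expression, and no upper limit is given for them.

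**Figure D1:**
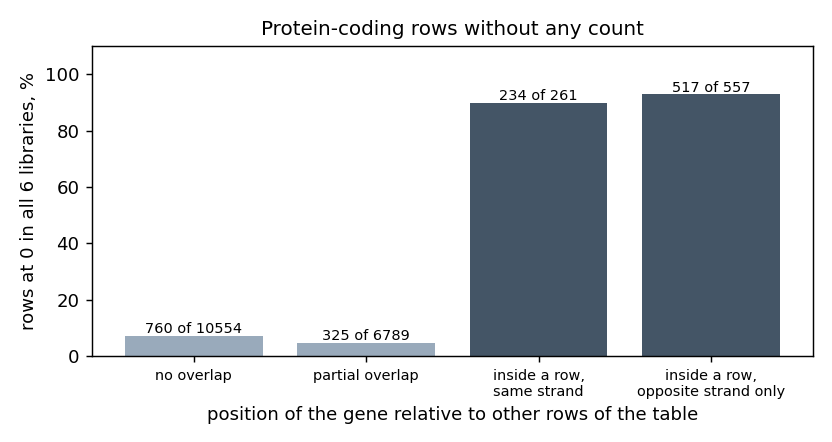
Share of protein-coding rows at 0 in all 6 libraries (vertical axis, percent), by the position of the gene relative to other rows of the table (horizontal axis), with the number of rows above each bar. Genes inside another row were at 0 in 89.7% (same strand) and 92.8% (opposite strand only), against 7.2% of genes that overlap no row.

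Partial overlap touched other imprinted genes. IGF2, the fetal growth factor gene, has 83.3% of its span under INS-IGF2, IGF2-AS and a microRNA gene, and it was listed at 3 to 4 counts in the knockdown libraries and 5 to 12 in the controls. RTL1, a retrotransposon-derived gene of placental development, is overlapped over 100% of its span and had 6 to 8 and 2 to 12 counts. UBE3A has 81.4% of its span under SNHG14, the paternally expressed transcript that runs antisense to it, leaving 18.6% to itself. SNHG14 itself had 3167 to 3738 CPM. SNURF and SNRPN share a transcript, the former lying wholly inside the latter, and how their reads were divided is uncertain; SNURF still had 254 to 553 counts per library, so a covered stretch can carry reads. GNAS and GNAS-AS1 overlap over 15.7% and 35.0% of their spans. How reads in covered stretches or in introns were assigned is not stated. Some protein-coding genes lie inside an opposite-strand row only, with exons that overlap no exon of another row. Of these, 305 of 325 (93.8%) had no count in any library, so covered introns also went with missing counts. Whether whole spans, introns included, were counted was not tested. Levels are given per kb of exon that no other row overlaps, and the order is given again per kb of gene span that no other row overlaps. If introns were counted, exon length is too short a divisor and the order by span applies.

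Levels in the control libraries spanned from highly expressed to barely detected. PEG10, a retrotransposon-derived gene needed for the placenta, was highest, with 40.7 ± 1.96 CPM per kb (SD, n = 3). GNAS, which encodes the stimulatory G protein alpha subunit, followed with 38.6 ± 1.11 CPM per kb, and UBE3A, a ubiquitin ligase gene that is maternally expressed in neurons, with 36.3 ± 3.50 CPM per kb. The ranges of the 3 control libraries of GNAS and UBE3A overlapped, so their order is not resolved. MEST, which encodes a hydrolase-like membrane protein, had 28.3 ± 0.589 CPM per kb. The phosphatase gene INPP5F had 26.4 ± 0.861 CPM per kb, and the growth factor receptor adaptor GRB10 had 24.1 ± 0.827 CPM per kb. GNAS-AS1, the antisense RNA of the GNAS locus, had 22.0 ± 2.90 CPM per kb and overlapped with GRB10. The actin-binding neuronal scaffold PPP1R9A had 17.6 ± 1.46 CPM per kb, the vesicle coat subunit COPG2 15.3 ± 0.198 CPM per kb and the zinc finger gene ZDBF2 10.6 ± 0.850 CPM per kb.

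A middle group lay between 1 and 10 CPM per kb. SNRPN, a splicing protein gene of the Prader-Willi region, had 8.70 ± 1.13 CPM per kb, NDN, which encodes the growth suppressor necdin, 8.53 ± 0.553 CPM per kb, and BLCAP 8.08 ± 0.315 CPM per kb. Neighbours in the run from ZDBF2 to BLCAP overlapped between control libraries, so their order is not resolved. The potassium channel gene KCNQ1 (2.28 ± 0.299 CPM per kb) and the chromatin protein gene L3MBTL1 (2.19 ± 0.0771 CPM per kb) were level, SGCE, encoding epsilon-sarcoglycan, had 1.73 ± 0.0409 CPM per kb, and SLC22A18 and PHLDA2 had 1.26 ± 0.273 and 1.20 ± 0.475 CPM per kb. In all, 18 of the 27 genes for which a level could be given were at or above 1 CPM per kb, and 10 were when the level was taken per kb of uncovered gene span. By span the order also changed: PEG10 stayed at rank 1, NDN went from rank 12 to 2, UBE3A from 3 to 8, SNRPN from 11 to 19 and KCNQ1 from 14 to 23. H19, the maternally expressed noncoding RNA that is abundant in placenta, had 0.792 ± 0.173 CPM per kb. The zinc finger gene PLAGL1 had 0.503 ± 0.0511 and the Notch-ligand-like gene DLK1 0.413 ± 0.0310 CPM per kb. WT1, MAGEL2, IGF2, MEG8, MEG3 and MKRN3 were lowest, from 0.0838 down to 0.0164 CPM per kb. Other rows overlap 32.8% of the span of MEG3 and 38.6% of that of MEG8, and how reads there were assigned is not stated. Among the 4 highest genes per kb of exon, UBE3A was the only maternally expressed one. Its level divides the whole row by 0.981 kb of uncovered exon, out of 12.8 kb of exon, so it may be too high. The same limit applies to other genes with covered exons, such as GNAS-AS1 (1.71 of 3.66 kb uncovered) and SNRPN (1.63 of 3.42 kb). By span the 4 highest (PEG10, NDN, GNAS and MEST) held no maternally expressed gene.

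**Figure D2:**
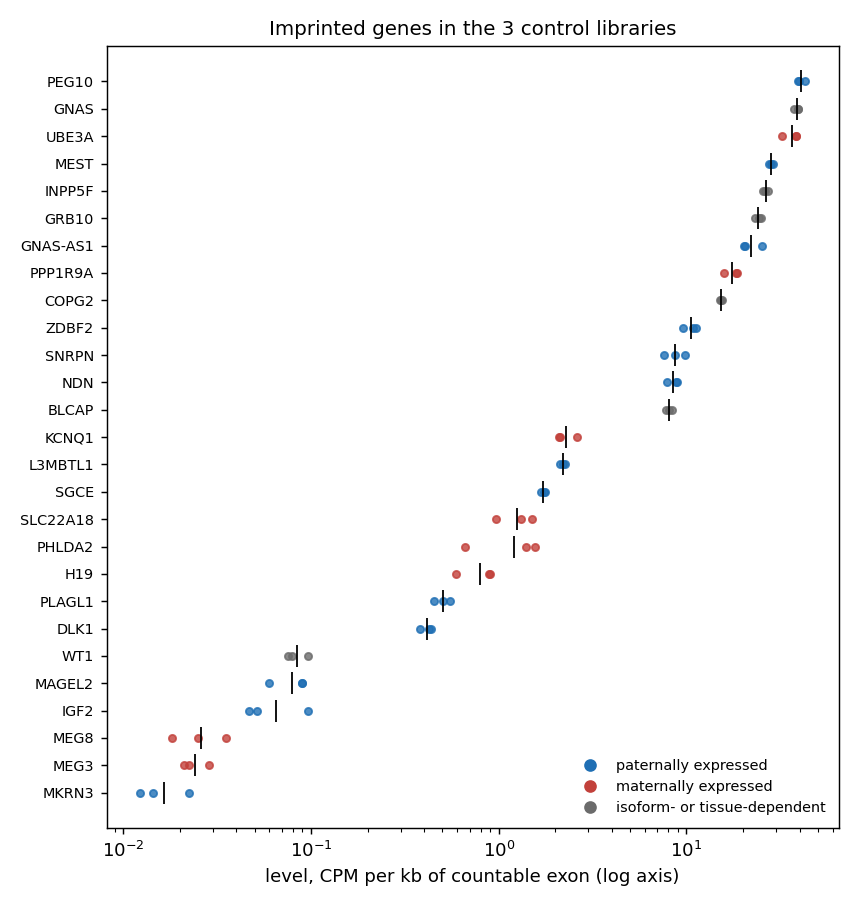
Level of 27 imprinted genes in the 3 control libraries (horizontal axis, CPM per kb of exon not overlapped by another row, log axis), 1 gene per line. Points are libraries, coloured by class, and the bar is their mean; the means run from 40.7 for PEG10 to 0.0164 for MKRN3.

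The comparison of knockdown with control asks whether the gapmer against ALR RNA goes with a change in these genes. Loss of ALR RNA itself was not checked here. None of the 24 tested imprinted genes passed the threshold in edgeR's quasi-likelihood test, with p-values adjusted by the Benjamini-Hochberg method over all 19721 tested genes. DESeq2's Wald test called 2, GRB10 and UBE3A, of the 19 for which it gave an adjusted p, which leaves out DLK1, MAGEL2, H19, PHLDA2 and WT1. With limma-voom, 0 of the 24 passed. Over all tested genes, 155 (0.786%) passed in edgeR, 27 higher (0.137%) and 128 lower (0.649%) in the knockdown. At an unadjusted p under 0.05, 9 of the 24 (37.5%) stood out, 2 higher and 7 lower, against 14.3% of all tested genes. For 9 of the 24 (37.5%) the 3 knockdown libraries lay entirely on 1 side of the 3 controls, 3 higher and 6 lower, against 18.9% of all tested genes. Among the 21 imprinted genes with a mean count of at least 50, both counts were again 9 (42.9%), against 17.1% and 21.2% of all 15140 genes at that depth. Without knockdown library a, 4 of the 24 (16.7%) had an unadjusted p under 0.05, against 13.3% of all tested genes, and 10 of the 24 (41.7%) did not overlap, against 30.3%. The genes are not independent of each other, as several share a locus or a transcript. Their log2 differences ran from -0.36 (UBE3A) to 0.93 (WT1), with a median of 0.07, and over all tested genes the median was 0.02. For 20 of the 24, the 95% interval of the difference lay within 1 log2 unit of 0. In RNA from whole cultures, fewer cells of a kind and less RNA per cell cannot be told apart.

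Of the 12 tested paternally expressed genes, 6 had a higher mean in the knockdown and 6 a lower one, with a median log2 difference of 0.07 that ran from -0.006 to 0.11 as each library was left out. An unadjusted p under 0.05 was reached by 6 of the 12 (50%, against 14.3% of all tested genes), and 7 (58.3%, against 18.9%) did not overlap between groups. DLK1, on chromosome 14 (100725705 to 100738224, hg38), had 3.07, 4.14 and 4.55 CPM in knockdown libraries a, b and c. The controls had 2.32, 2.25 and 2.01 CPM in the same order of letters. All 3 knockdown libraries were above all 3 controls, with library a the lowest of the 3. The log2 difference was 0.84 ± 0.20 (SE; 95% interval 0.40 to 1.28; unadjusted p = 0.00137; edgeR adjusted p = 0.0889). Its adjusted p ranged from 0.00997 to 0.376 over the 15 alternatives that gave one and was under the threshold in 2, without a filter on low counts and without knockdown library a (log2 difference 0.98; edgeR adjusted p = 0.0404). The counts behind it were low, from 66 to 138 per library.

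MEST (chromosome 7, 130486171 to 130506465) had 146, 147 and 137 CPM in the knockdown libraries and 129, 132 and 126 CPM in the controls. The groups did not overlap, though they lay close together, with a log2 difference of 0.15 ± 0.06 (edgeR adjusted p = 0.290). NDN (chromosome 15, 23685400 to 23687330) had 20.9, 18.3 and 17.3 CPM against 17.2, 15.2 and 17.0 CPM. The groups touched, with knockdown c just above control a, and the log2 difference was 0.20 ± 0.10 (edgeR adjusted p = 0.384). Without knockdown library a, the highest for NDN, it was 0.11.

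PEG10 and SGCE are a head-to-head pair on chromosome 7 (94656325 to 94669695 and 94524204 to 94656572) and are known to share a control region. PEG10 had 285, 314 and 267 CPM in the knockdown libraries and 254, 276 and 256 CPM in the controls, and the groups overlapped. Its log2 difference was 0.14 ± 0.07 (edgeR adjusted p = 0.420), and 0.07 without knockdown library b. SGCE had 29.6, 33.2 and 33.9 CPM against 34.6, 35.9 and 36.2 CPM, so every knockdown library was below every control. Its log2 difference was -0.14 ± 0.07 (edgeR adjusted p = 0.413), and -0.09 without knockdown library a. The difference between both genes was not tested.

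ZDBF2 (chromosome 2, 206274663 to 206314438) had 129, 136 and 116 CPM in the knockdown libraries and 105, 123 and 118 CPM in the controls. The groups overlapped, and the log2 difference was 0.14 ± 0.08 (edgeR adjusted p = 0.455), with 0.08 left without knockdown library b and 0.09 without control a. L3MBTL1 (chromosome 20, 43489442 to 43550950), related to the Polycomb family and a compactor of chromatin, had 25.8, 29.8 and 31.9 CPM against 32.8, 34.4 and 35.1 CPM. All knockdown libraries lay below all controls, library a furthest. This gave a log2 difference of -0.23 ± 0.09 (edgeR adjusted p = 0.258), and -0.15 without library a.

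In the Prader-Willi region of chromosome 15, SNRPN (24823637 to 24978723) had 12.3, 10.5 and 12.1 CPM in the knockdown libraries and 16.0, 12.4 and 14.2 CPM in the controls. The groups did not overlap, but knockdown a and control b were nearly equal. SNRPN differed by -0.29 ± 0.12 on the log2 scale (edgeR adjusted p = 0.282), and by -0.19 without control a. SNURF, carried by the same transcript, had 8.95, 9.77 and 12.7 CPM against 12.9, 11.1 and 15.2 CPM. Its groups overlapped, its log2 difference was -0.32 ± 0.15 (edgeR adjusted p = 0.347), and it is not independent of SNRPN. It was -0.50 without knockdown c and -0.20 without control c. MAGEL2, a neighbour of NDN that regulates a ubiquitin ligase, had 17, 3 and 9 counts in the knockdown libraries and 11, 8 and 14 in the controls. Its groups overlapped, and its interval, -1.28 to 1.27, leaves the direction undetermined at this depth. The log2 difference of -0.01 became -0.70 without knockdown a and 0.47 without knockdown b.

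GNAS-AS1 (chromosome 20, 58818919 to 58850903) had 26.8, 34.2 and 34.1 CPM in the knockdown libraries. In the controls it had 34.6, 34.9 and 43.4 CPM. The groups did not overlap, but only knockdown a and control c lay away from the other 4 libraries. The log2 difference was -0.25 ± 0.11 (edgeR adjusted p = 0.336), -0.14 without library a and -0.13 without control c. PLAGL1, a growth-restraining transcription factor gene, had 4.40 to 6.25 CPM against 3.93 to 4.82 CPM, with overlapping groups and a log2 difference of 0.22. Without knockdown library c, its highest, this was 0.035, and without control b it was 0.14.

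Of the 6 tested maternally expressed genes, 4 had a higher mean in the knockdown and 2 a lower one, with a median log2 difference of 0.12 that ran from -0.05 to 0.24 as each library was left out. The 2 lower ones, UBE3A and PPP1R9A, had an unadjusted p under 0.05 (33.3%, against 14.3% of all tested genes). UBE3A alone did not overlap between groups (16.7%, against 18.9%). UBE3A (chromosome 15, 25333728 to 25439056), the gene of Angelman syndrome, had 26.5, 27.3 and 29.6 CPM in the knockdown libraries. The controls had 37.5, 31.7 and 37.7 CPM, all above every knockdown library. The log2 difference was -0.36 ± 0.09 (95% interval -0.55 to -0.18; unadjusted p = 0.00115; edgeR adjusted p = 0.0826), the smallest p of the 24. Its adjusted p ranged from 0.00295 to 0.400 over the 16 alternatives and was under the threshold in 5. SNHG14, the transcript antisense to it, was also lower by its mean, with 3167 to 3387 CPM in the knockdown libraries and 3471 to 3738 CPM in the controls (log2 difference -0.11 ± 0.07; edgeR adjusted p = 0.471). The part of SNHG14 reads in the UBE3A value was not tested.

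PPP1R9A (chromosome 7, 94907202 to 95296415) had 154, 135 and 197 CPM in the knockdown libraries and 207, 177 and 204 CPM in the controls. Knockdown c lay within the control range, so the groups overlapped. The log2 difference was -0.27 ± 0.12 (edgeR adjusted p = 0.312), and it rested on single libraries: without knockdown c it was -0.46 (edgeR adjusted p = 0.00773), and without knockdown b -0.16 (edgeR adjusted p = 0.614). KCNQ1 (chromosome 11, 2444684 to 2849110) had 11.5, 6.47 and 7.48 CPM against 6.12, 6.22 and 7.68 CPM. Library a was high and the other 2 knockdown libraries lay among the controls. For KCNQ1 the log2 difference was 0.34 ± 0.19 (edgeR adjusted p = 0.459) with library a and 0.05 without it. The row of KCNQ1 also covers the span of KCNQ1OT1.

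H19 had 2.26, 2.73 and 2.57 CPM in the knockdown libraries and 2.53, 1.67 and 2.50 CPM in the controls. These overlapped, with a log2 difference of 0.17 ± 0.23 (95% interval -0.32 to 0.67; edgeR adjusted p = 0.780). The growth-restraining placental gene PHLDA2 had 1.23 to 1.48 CPM against 0.633 to 1.48 CPM, and the transporter gene SLC22A18 had 4.58 to 7.60 CPM against 4.22 to 6.58 CPM. Both overlapped between groups, with log2 differences of 0.26 and 0.07.

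The 6 tested genes whose imprint depends on isoform or tissue had a median log2 difference of 0.04, with 4 higher and 2 lower. GRB10 (chromosome 7, 50590063 to 50793462), active from the maternal copy in trophoblast and the paternal copy in neurons, had 202, 208 and 210 CPM in the knockdown libraries. The controls had 244, 228 and 238 CPM, all above every knockdown library. The log2 difference was -0.19 ± 0.06 (95% interval -0.33 to -0.06; unadjusted p = 0.00818; edgeR adjusted p = 0.183). Its adjusted p ranged from 0.0310 to 0.520 over the 16 alternatives and was under the threshold in 2.

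Of the other 5, 4 differed by at most 0.07 on the log2 scale. GNAS (chromosome 20, 58839718 to 58911192) had 458, 497 and 445 CPM against 452, 451 and 429 CPM, with a log2 difference of 0.07 ± 0.07 (95% interval -0.08 to 0.22; edgeR adjusted p = 0.678). Its groups overlapped, and without knockdown library b the difference was 0.02. INPP5F (chromosome 10, 119726042 to 119829278) had 213, 216 and 204 CPM against 208, 200 and 195 CPM, overlapped, and differed by 0.07 ± 0.06 on the log2 scale (95% interval -0.07 to 0.20; edgeR adjusted p = 0.672). COPG2 (chromosome 7, 130506238 to 130668748), the neighbour of MEST, had 57.2, 54.0 and 59.9 CPM against 58.9, 58.1 and 57.4 CPM. It overlapped, and its log2 difference was -0.03 ± 0.07 (95% interval -0.17 to 0.11; edgeR adjusted p = 0.885). BLCAP had 56.4 to 66.0 CPM against 58.4 to 63.1 CPM, again overlapping. WT1, a transcription factor gene of kidney and gonad, had 37, 15 and 4 counts in the knockdown libraries and 9, 12 and 11 in the controls. Its log2 difference was 0.93 ± 0.62, the highest of the 24, and -0.08 without library a.

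**Figure D3:**
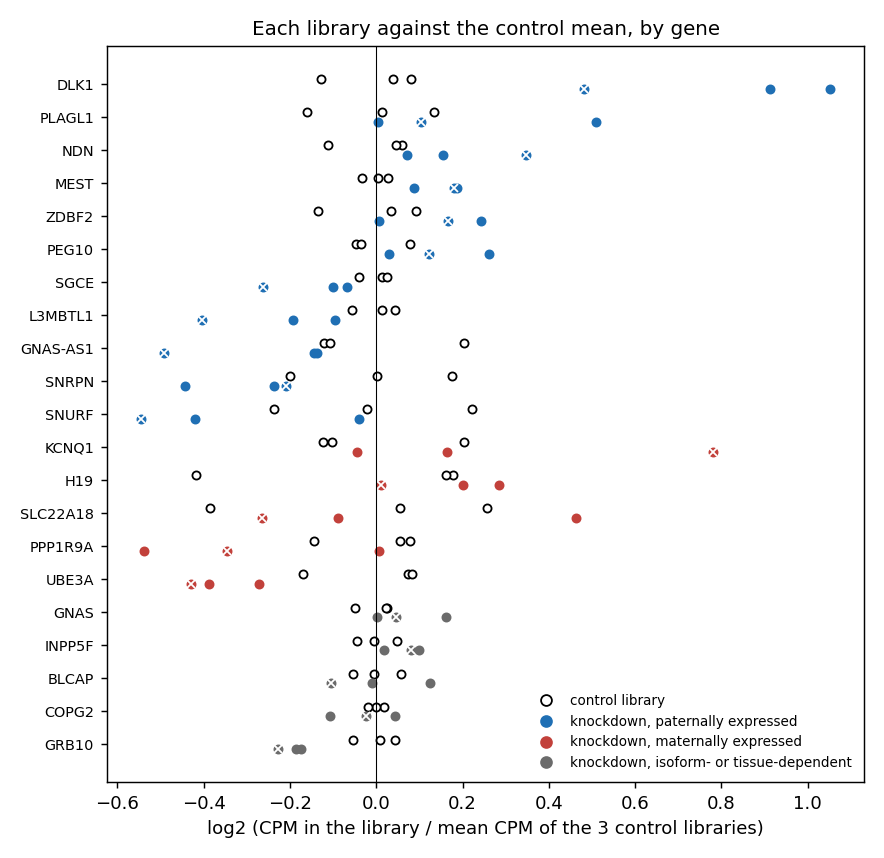
The 21 tested imprinted genes with a mean count of at least 50, 1 per line: log2 ratio of CPM in each library to the mean of the 3 control libraries (horizontal axis). Open points are control libraries and filled points knockdown libraries, coloured by class, with a white cross on knockdown library a; DLK1 has the largest difference between group means (log2 difference 0.84), followed by UBE3A (-0.36), and the library of KCNQ1 that lies far from the rest is knockdown a.

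Few-count genes leaned on 1 library. Of the 9 imprinted genes with a mean count above 0 and under 50, 6 were highest in knockdown library a (ZIM2, MAGEL2, MKRN3, MEG3, MEG8 and WT1). That library had a count in 29678 rows of the table, against 25898 to 26788 in the others. The same share was not computed over all few-count genes, so it is not known to be particular to imprinted ones. The ubiquitin ligase gene MKRN3 had 28 counts there and 5 in each of the other knockdown libraries, with 2 to 4 in the controls. The noncoding RNA MEG3, a maternally expressed partner of DLK1, had 15 counts there against 2 and 3 in the other knockdown libraries and 4 to 5 in the controls. MEG8 had 16, 2 and 9 against 4 to 9, and ZIM2 had 7 counts in library a and 0 in the other 5. None of MKRN3, MEG3, MEG8, ZIM2, IGF2 and RTL1 passed the filter on low counts, so no test was made for them. A row not obscured by overlap and at 0 would have been below 0.0820 to 0.120 CPM, the limit that 3 counts set in each library. This limit uses total counts without TMM factors and covers counting error only.

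Gene span went with the direction of the differences. Over all tested genes with a gene model, the median log2 difference was 0.06 for 5351 genes under 20 kb, 0.02 for 6528 genes of 20 to 100 kb and -0.04 for 3326 genes over 100 kb. The percentage of these genes that passed the threshold was 0.467, 0.689 and 1.74 in the same order. Of the 6 imprinted genes under 20 kb (DLK1, H19, MAGEL2, NDN, PEG10 and PHLDA2), 5 had a higher mean in the knockdown, with a median of 0.18. Of the 9 of 20 to 100 kb, 6 were higher, with a median of 0.07. Of the 9 over 100 kb (COPG2, GRB10, INPP5F, KCNQ1, PLAGL1, PPP1R9A, SGCE, SNRPN and UBE3A), 6 were lower (66.7%), with a median of -0.14. The same directions prevailed over all tested genes with a gene model. Of these, 3458 of 5351 under 20 kb and 3546 of 6528 of 20 to 100 kb were higher. Over 100 kb, 1961 of 3326 (59.0%) were lower. After each library's trend of expression on span was removed, UBE3A stayed at -0.36 with an edgeR adjusted p of 0.0488, GRB10 was at -0.16 (edgeR adjusted p = 0.407) and DLK1 at 0.78 (edgeR adjusted p = 0.0618). UBE3A was the only one of the 24 under the threshold in that fit, which was limited to the 15205 tested genes with a gene model. With the same genes and the trend kept, UBE3A had an edgeR adjusted p of 0.0607 and none of the 24 passed.

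**Figure D4:**
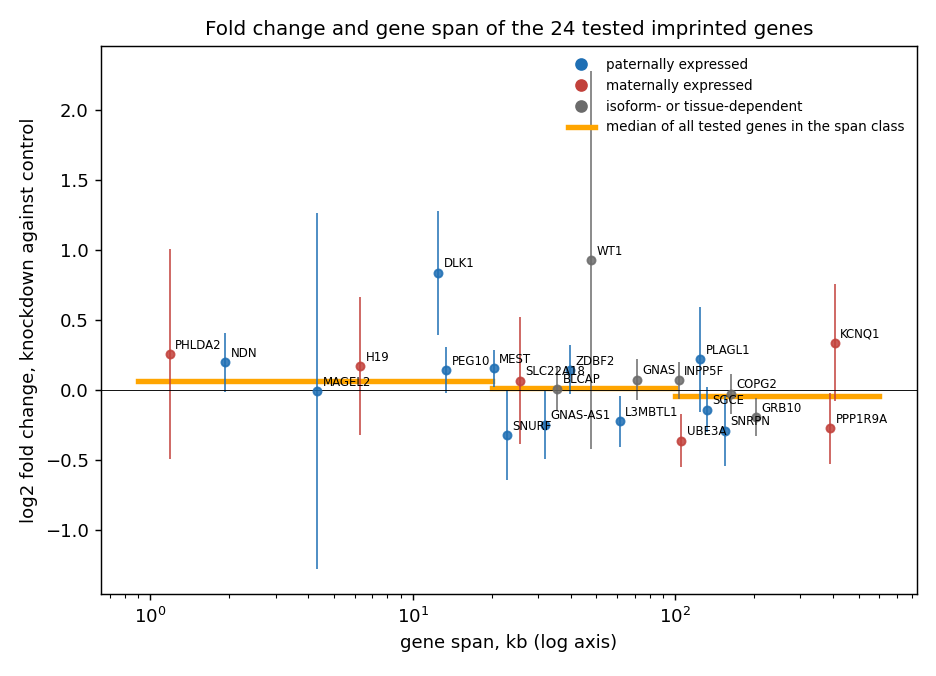
Log2 difference of knockdown against control (vertical axis) by gene span in kb (horizontal axis, log axis) for the 24 tested imprinted genes, coloured by class; bars are 95% intervals. Orange lines are the medians of all tested genes under 20 kb, of 20 to 100 kb and over 100 kb (0.06, 0.02 and -0.04).

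The factors that set, keep or remove imprints were read from a list of 29 genes, and none of the 27 tested passed the threshold in edgeR. Of the 27, 17 had a higher mean in the knockdown and 10 a lower one, with a median log2 difference of 0.06 and a range from -0.72 to 0.30. An unadjusted p under 0.05 was reached by 6 of 27 (22.2%, against 14.3% of all tested genes), and 9 of 27 (33.3%, against 18.9%) did not overlap between groups. DESeq2's Wald test called 0 of the 21 for which it gave an adjusted p, and limma-voom 0 of the 27. The low end of the range is DNMT3L, the cofactor of the de novo methyltransferases, named after its values were seen. It had 41, 45 and 36 counts in the knockdown libraries and 85, 75 and 58 in the controls, without overlap (log2 difference -0.72 ± 0.27; edgeR adjusted p = 0.258). UHRF1, which brings DNMT1 to newly replicated DNA, had 118, 135 and 124 CPM in the knockdown libraries and 109, 109 and 106 CPM in the controls. The groups did not overlap, and the log2 difference was 0.22 ± 0.07 (edgeR adjusted p = 0.168). ARID4A and ARID4B, chromatin proteins of the Prader-Willi imprint, were both lower in every knockdown library than in every control. ARID4A had 27.1 ± 0.559 CPM against 31.0 ± 0.254 CPM (SD, n = 3; log2 difference -0.19; edgeR adjusted p = 0.229). ARID4B had 106 ± 5.60 CPM against 120 ± 3.23 CPM (log2 difference -0.18; edgeR adjusted p = 0.237). TRIM28, the corepressor bound by ZFP57, had 645 ± 44.4 CPM against 586 ± 21.4 CPM, and the methyltransferase gene DNMT3B had 2056 ± 101 CPM against 1907 ± 10.7 CPM. The demethylation enzyme TET1 had 499 ± 26.2 CPM against 480 ± 26.8 CPM. Their edgeR adjusted p-values were 0.399, 0.488 and 0.761, and without knockdown library b their log2 differences of 0.14, 0.11 and 0.06 became 0.08, 0.06 and 0.0068.

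A second list held 46 other genes reported as imprinted, of which 39 had a row, 9 were at 0 in all libraries and 19 were tested. None of the 19 passed the threshold in edgeR; 8 were higher and 11 lower in the knockdown, with a median log2 difference of -0.02, and 6 (31.6%, against 14.3% of all tested genes) had an unadjusted p under 0.05. For 7 (36.8%, against 18.9%) the groups did not overlap. DESeq2's Wald test called 1, CASD1, of the 16 for which it gave an adjusted p, and limma-voom 0 of the 19. The lipid-transfer gene OSBPL5, near PHLDA2, had 22.6, 22.2 and 24.7 CPM in the knockdown libraries and 19.5, 17.2 and 18.2 CPM in the controls. The groups did not overlap, and the log2 difference was 0.34 ± 0.08 (edgeR adjusted p = 0.0920). ATP10A, a lipid flippase gene beside UBE3A, had 9.13, 8.87 and 7.87 CPM against 6.72, 5.64 and 6.47 CPM, also without overlap. Its log2 difference was 0.46 ± 0.12 (edgeR adjusted p = 0.121), opposite in sign to that of UBE3A, and the difference between the genes was not tested. CASD1, a sialic acid acetyltransferase gene beside SGCE with 68.7% of its span overlapped by other rows, had 59.4, 55.8 and 62.2 CPM against 68.2, 72.0 and 72.3 CPM. Its groups did not overlap either (log2 difference -0.26 ± 0.07; edgeR adjusted p = 0.0987). The abundant LIN28B and IGF2R differed by -0.16 and -0.12 on the log2 scale, with edgeR adjusted p-values of 0.266 and 0.461.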

How the data were processed

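RNA-seq of 6 libraries (3 knockdown, 3 control) was used as a table of raw counts per gene symbol that the authors deposited. Per the submitters' processing notes, Trimmomatic 0.39, STAR 2.7.8a and featureCounts (Subread, given as 2.14.2) were used with hg38; annotation, strand setting and handling of overlapping genes are not given in the sources used here. Rows inside other rows are almost all at 0, so genes at 0 there were taken as not measured. SNURF and RTL1 also lie inside another row but had counts. The kit was directional, per the labels' protocols.

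Genes were kept by filterByExpr, scaled by TMM and tested with edgeR 4.0.16 (R 4.3.3; quasi-likelihood, group as the only term, two-sided). P-values were adjusted by the Benjamini-Hochberg method over all 19721 genes at a threshold of 0.05. CPM used TMM-scaled library sizes. SE was the log2 difference over the square root of F. Overlaps, spans and exon lengths came from GENCODE release 29, and promoters from RefSeq. The procedure was also run on simulated counts, drawn independently for each gene and without a span trend. The outcome is not given here.

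Values in every library were given for genes past the threshold, for those with groups that do not overlap and a mean count of at least 50, and for the 12 with the highest control level; SNURF, KCNQ1, WT1, H19, MAGEL2 and the few-count genes were added after their values were seen. From the lists of imprint factors and of other imprinted genes, those named are the 3 of highest mean CPM and the 3 of lowest p. DNMT3L was added after its values were seen. The genes and lists were chosen with earlier results of these data known. Alternatives were other scalings, DESeq2 1.42.0, limma-voom (limma 3.58.1), other filters, the replicate letter as a block, and each library left out; removal of the span trend (natural spline, 5 degrees of freedom), the same genes with the trend kept, counts without knockdown library a, and the other ways of computing levels were added after seeing the data.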

Additional observations from a re-analysis of the deposited data

How the results depend on the processing

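Of 568 tested values of 36 named genes under an alternative, 534 kept their direction and their side of the threshold. Another 18 passed the threshold only under the alternative, and 16 changed sign. DESeq2 values without an adjusted p are not counted, and DNMT3L is not among the 36. Over all genes, 155 passed; the number was 536 with DESeq2's Wald test, 1064 without a filter on low counts, 393 with the replicate block, and 26 (without control library a) to 1309 (without knockdown library c) as each library was left out. Of the imprinted genes, none passed in the test as reported, 2 of 19 passed with DESeq2 (GRB10 and UBE3A), 3 without a filter (DLK1, PPP1R9A and UBE3A), 1 with the replicate block (UBE3A) and 1 after removal of the span trend (UBE3A), where 0 passed over the same genes with the trend kept. Leaving out 1 library gave 0 to 3: DLK1 without knockdown a, and GRB10, PPP1R9A and UBE3A without knockdown c. The imprint factors went from 0 to 1 (ARID4B, without knockdown c). The other imprinted genes went from 0 to 1 with DESeq2 (CASD1), 3 without a filter (ATP10A, CASD1 and OSBPL5) and 0 to 2 with each library left out. The cause of these shifts was not tested.

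The median log2 difference of the paternally expressed genes, 0.07, was -0.0028 with limma-voom, 0.14 without a filter, 0.14 at a mean count of at least 50, 0.00064 with the replicate block and -0.0062 to 0.11 with each library left out. That of the maternally expressed genes was -0.051 to 0.24 with each library left out. By uncovered gene span, 10 genes were at or above 1 CPM per kb in place of 18.

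MAGEL2, at -0.01, was 0.026 with library size alone, 0.017 with the upper quartile, 0.0040 without a filter and -0.70 to 0.47 with each library left out. BLCAP was -0.033 after removal of the span trend. With each library left out, BLCAP ran from -0.062 to 0.058, H19 from -0.0049 to 0.27, PHLDA2 from -0.048 to 0.48, SLC22A18 from -0.19 to 0.22, COPG2 from -0.085 to 0.0037 and WT1 from -0.084 to 1.35. The letters are not said to mark a shared batch, and same-lettered libraries deviated together only weakly (correlations of 1.23e-05, 0.116 and -0.0251 for a, b and c), so they were not taken as pairs.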
